A study of Mus musculus with 2 samples.

Results

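The 7 genes described here encode actin and proteins that bind or accompany it in the mouse small intestine: Actb, Actg1, Pfn1, Cfl1, Tmsb4x, Tmsb10 and Crip1. They were taken by symbol from the 43346 Ensembl genes of the deposited gene tables, and all 7 were found. The members were chosen by symbol and partly by the measured TPM of Crip1 and Actb in these same libraries, so the levels and everything derived from them are a description with no test. The list is named for abundant genes, but Tmsb4x and Tmsb10 ranked only 2519 and 3945 by level in replicate 2 and 2032 and 4195 in replicate 1. No threshold for abundance was set, and the high levels of Crip1 and Actb were part of the choice.

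The samples were 2 RNA-seq libraries of small intestine, replicate 2 and replicate 1 of 1 group. Both came from adult C57BL/6J mice, a common inbred strain, aged 8 weeks, with male and female littermates pooled, no treatment named and the state of health given as unknown. The RNA was polyadenylated, depleted of ribosomal RNA and longer than 200 nt, carried added spike-in RNA, and was read as stranded pairs of 76 nt. The labels call them biological replicates, from separate biosamples under 1 donor entry, and do not say that separate animals were used, so how much of the spread between the libraries is technical is not known.

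Actin exists as a soluble monomer and as a filament that grows at its barbed end. Profilin delivers monomers to that end, beta-thymosins hold monomers in reserve, and cofilin binds and severs older filament, which returns monomers to the pool. In the absorptive cells of the intestine, bundled filaments form the core of each microvillus and are anchored in the terminal web, a dense actin meshwork below the brush border.

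Replicate 2 held 45822403 expected counts and replicate 1 held 45472946, so a gene with no counts could still hold 6.55e-06% of replicate 2 or 6.60e-06% of replicate 1 (3 counts). These limits cover counting error only. Markers of absorptive enterocytes were present in both libraries. By TPM, 8 of the 9 listed were higher in replicate 2, as were 90.8% of genes with a mean TPM of at least 10. Among these 8, Vil1 (villin, an actin bundler of microvilli) had 739 TPM in replicate 2, against 159 TPM in replicate 1. Alpi was the marker that went the other way, with 1663 TPM in replicate 2, against 3759 TPM in replicate 1. The libraries differed in the level of marker genes of exocrine pancreas and stomach, and where this RNA came from was not tested. The 10 exocrine pancreas markers summed to 1549 TPM in replicate 2, against 162438 TPM in replicate 1, and the 7 stomach markers to 51.0 TPM in replicate 2, against 19746 TPM in replicate 1. TPM divides by length and adds up to 1 fixed total in each library, so RNA of one source lowers the values of all others. The median of 12260 genes with a mean TPM of at least 1 lay 0.66 log2 units higher in replicate 2. How far the marker difference accounts for this shift was not tested. Ratios below are therefore given relative to that median gene, on the log2(TPM + 1) scale, unless they are called uncentred.

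The beta- and gamma-actin coding sequences are shown because most of the measured actin transcript came from these near-identical genes and reads must tell them apart. Both are 1128 nt long and 1000 of those bases were identical (88.7%). Of the 128 differences, 120 (93.8%) fell at the third position of a codon. The first 90 coding bases are printed 5′ to 3′ with the 16 bases that differ in capitals, from chr5:142905597-142905686 for Actb and chr11:120348002-120348091 for Actg1 (minus strand of GRCm38, GENCODE M21 transcripts).
Actb: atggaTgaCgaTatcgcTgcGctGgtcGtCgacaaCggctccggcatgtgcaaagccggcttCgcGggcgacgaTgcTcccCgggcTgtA
Actg1: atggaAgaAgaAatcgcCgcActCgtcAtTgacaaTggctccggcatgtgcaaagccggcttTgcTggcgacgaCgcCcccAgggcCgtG
The longest identical run was 62 nt, and no stretch of 76 nt, the length of a read, was shared between the main transcripts of both genes.

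Beta-thymosins are short peptides, and the coding sequences of Tmsb4x and Tmsb10 are printed whole. Each is 135 nt long, and 95 bases were identical (70.4%). They are spliced from chrX:167207501-167208036 for Tmsb4x and chr6:72957618-72958012 for Tmsb10 (minus strand, GRCm38), with the 40 bases that differ in capitals.
Tmsb4x: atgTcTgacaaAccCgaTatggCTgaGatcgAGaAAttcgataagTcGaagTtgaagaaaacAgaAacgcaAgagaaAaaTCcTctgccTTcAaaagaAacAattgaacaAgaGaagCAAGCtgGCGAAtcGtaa
Tmsb10: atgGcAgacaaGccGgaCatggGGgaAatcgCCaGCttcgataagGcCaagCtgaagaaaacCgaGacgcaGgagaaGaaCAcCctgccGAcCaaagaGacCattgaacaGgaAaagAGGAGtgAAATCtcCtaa
Of these 40 differences 25 fell at the third position of a codon, a smaller share than between the actins.

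Crip1 encodes cysteine-rich intestinal protein, a small LIM-domain protein in which cysteines hold zinc. Its whole coding sequence of 234 nt, spliced from chr12:113152114-113153658 (plus strand, GRCm38), is printed with the cysteine codons TGC and TGT in capitals.
Crip1: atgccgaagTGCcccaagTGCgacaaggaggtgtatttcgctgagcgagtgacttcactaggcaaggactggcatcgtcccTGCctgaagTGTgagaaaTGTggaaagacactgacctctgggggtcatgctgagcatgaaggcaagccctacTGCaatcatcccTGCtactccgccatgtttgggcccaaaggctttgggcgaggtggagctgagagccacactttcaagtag
These were 7 of its 77 codons (9.09%).

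Crip1 had the highest TPM of the 7 genes, and the order of the genes by TPM was the same in both libraries. Crip1 (ENSMUSG00000006360.7, chr12:113146316-113153879, plus strand) had 16824 TPM in replicate 2, against 4954 TPM in replicate 1, a mean of 10889 ± 8393 TPM (SD, n = 2). Among protein-coding genes it ranked 2 in replicate 2, against 17 in replicate 1. It made up 1.68% of all TPM in replicate 2, against 0.495% in replicate 1.

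Actb (ENSMUSG00000029580.10, chr5:142903115-142906754, minus strand) encodes beta-actin, the main actin of most non-muscle cells. It had 9786 TPM in replicate 2, against 3775 TPM in replicate 1, a mean of 6780 ± 4250 TPM (SD, n = 2). By expected counts, which are not divided by length, Actb exceeded Crip1. Actb had 528498 counts in replicate 2, against 252474 in replicate 1, and Crip1 had 150711 in replicate 2, against 52751 in replicate 1. Actb alone took 1.15% of all counts in replicate 2, against 0.555% in replicate 1.

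The order of Crip1 and Actb depended on how length was treated. By TPM the level of Crip1 was 1.72 times that of Actb in replicate 2 and 1.31 times in replicate 1, a mean of 1.52 ± 0.288 (SD, n = 2). The annotated Crip1 transcript is 445 nt long, but the authors' effective length was 227 nt in replicate 2, against 209 nt in replicate 1. Effective length shrinks as fragments grow, and the mean fragment was 219 nt in replicate 2, against 237 nt in replicate 1. With counts divided by full length instead, a choice made after seeing the data, the Crip1 level was 1.02 times that of Actb in replicate 2 and 0.728 times in replicate 1.

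Actg1 (ENSMUSG00000062825.11, chr11:120345690-120348542, minus strand) encodes gamma-actin, the other cytoplasmic actin. It had 1079.6 TPM in replicate 2, against 744 TPM in replicate 1, a mean of 912 ± 237 TPM (SD, n = 2). Of the 7 genes it had the smallest spread between libraries relative to its mean after Tmsb4x.

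Pfn1 (ENSMUSG00000018293.4, chr11:70651850-70654644, minus strand) encodes profilin-1, which binds actin monomers and speeds the exchange of their nucleotide. It had 4632 TPM in replicate 2, against 1861 TPM in replicate 1, a mean of 3246 ± 1959 TPM (SD, n = 2). Its rank among protein-coding genes was 12 in replicate 2, against 47 in replicate 1. Cfl1 (ENSMUSG00000056201.6, chr19:5490455-5495201, plus strand) encodes non-muscle cofilin. It had 568 TPM in replicate 2, against 251 TPM in replicate 1, a mean of 409.9 ± 224 TPM (SD, n = 2).

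The beta-thymosins were the lowest of the 7. Tmsb4x (ENSMUSG00000049775.12, chrX:167207093-167209315, minus strand) encodes thymosin beta-4, a monomer-sequestering peptide known for high levels in blood cells. It had 47.3 TPM in replicate 2, against 35.8 TPM in replicate 1, a mean of 41.5 ± 8.14 TPM (SD, n = 2). Tmsb10 (ENSMUSG00000079523.4, chr6:72957347-72958748, minus strand) encodes thymosin beta-10, a close relative. It had 24.9 TPM in replicate 2, against 13.3 TPM in replicate 1, a mean of 19.1 ± 8.25 TPM (SD, n = 2).

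Within each library, Crip1 lay above Actb and Actb above Pfn1 by TPM. With both libraries pooled, the ranges of neighbours in this order were not always apart. The 2 values of Crip1 overlapped in range with those of Actb, and those of Actb with those of Pfn1. Pfn1, Actg1, Cfl1 and Tmsb4x did not overlap in range with the gene below each of them. The range over all 7 genes was wide, since Crip1 lay at 16824 TPM and Tmsb10 at 24.9 TPM in replicate 2, against 4954 and 13.3 TPM in replicate 1.

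**Figure D1:**
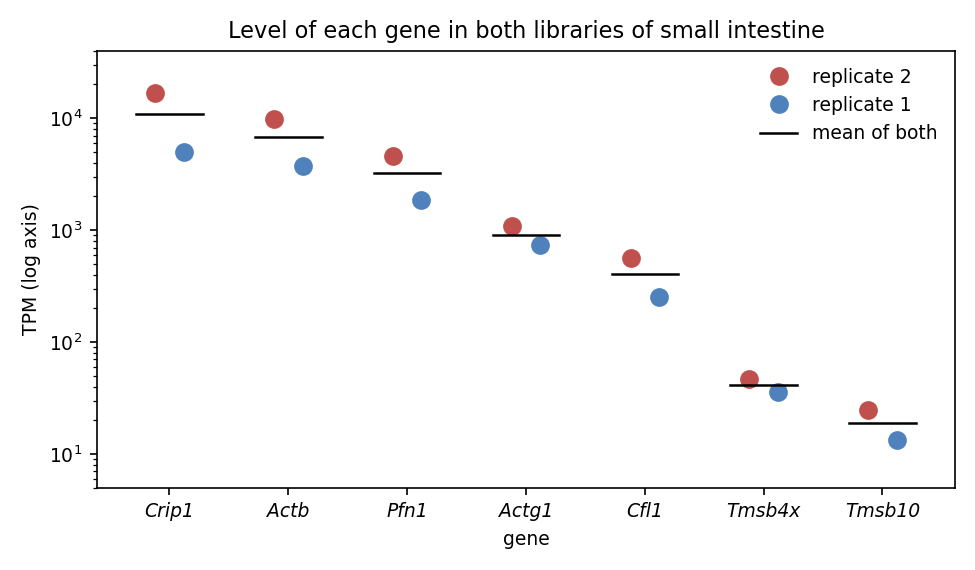
Deposited TPM of the 7 genes on a log10 axis, with a point for each library, replicate 2 left of replicate 1, and a line for the mean of both. Every gene was higher in replicate 2, and Tmsb4x and Tmsb10 lay below 50 TPM in both libraries while the other 5 lay above 200 TPM.

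All 7 genes had more TPM in replicate 2. So had 90.8% of the 5926 genes with a mean TPM of at least 10, and all 7 pairs of the authors' credibility intervals were apart in that direction, as were those of 84.7% of these genes. The uncentred ratio was 2-fold or more for Crip1, Actb, Pfn1 and Cfl1, 4 of 7 members, where 34.9% of all genes passed the same threshold and 3.1% passed it in the lower direction. After centring on the median gene 1 of 7 passed, and 7.83% of all genes did (5.28% lower). That gene was Crip1.

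Relative to the median gene, Crip1 was higher in replicate 2 by 1.10 on the log2 scale, with a counting error of 0.0073, and 93.5% of the 5926 genes had a lower ratio. With a pseudocount of 0.1, or centred on genes of at least 10 TPM, no member passed 2-fold and Crip1 lay at 0.98 and 0.95. Actb lay at 0.71, above 85.1% of genes, and Pfn1 at 0.65, above 83.0%. Cfl1 lay at 0.51, above 76.7% of genes. These 4 genes lay above the upper quartile of all genes.

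The other 3 sat near the middle or below. Tmsb10 lay at 0.20 with a counting error of 0.13, above 54.1% of genes. Actg1 lay at -0.13 relative to the median gene but at 0.54 uncentred, and at 0.11 relative to the median gene with a pseudocount of 5, so its sign depends on these choices. Tmsb4x lay at -0.27 relative to the median gene and at 0.39 uncentred, so its sign depends on the centring. The median of the 7 genes was 0.51, and the median of the 5926 genes was 0.15 with quartiles of -0.20 and 0.48.

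**Figure D2:**
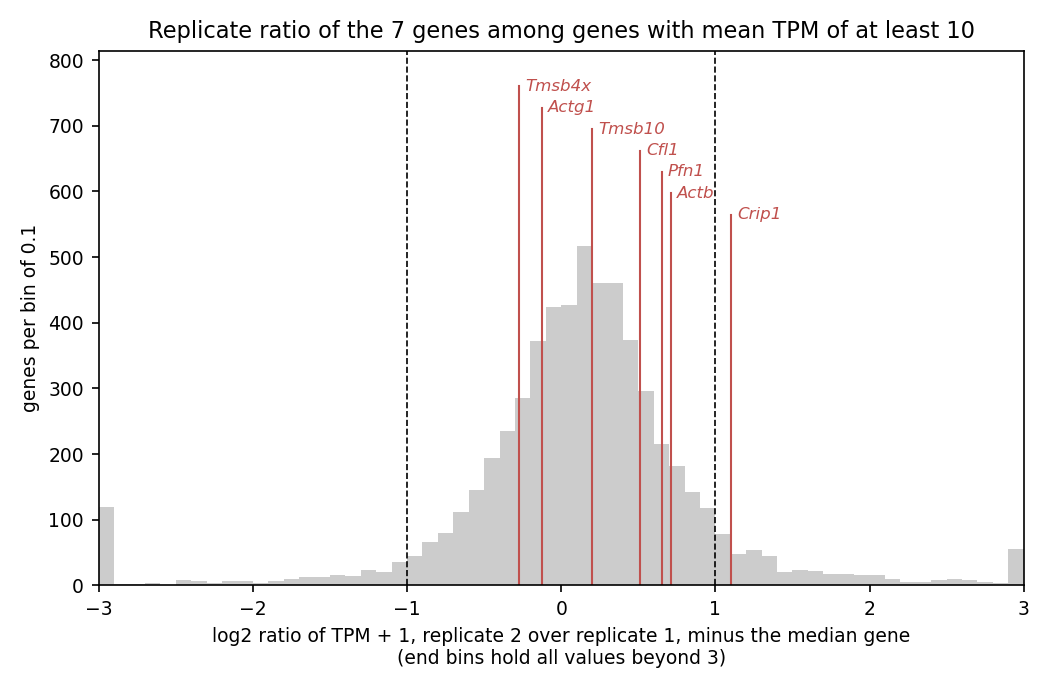
Distribution of the log2 ratio of TPM + 1, replicate 2 over replicate 1, minus the median gene, for 5926 genes (grey, genes per bin of 0.1; the end bins gather all values beyond 3), with a red line for each of the 7 genes and dashed lines at 2-fold. Crip1 at 1.10 lay past the dashed line, and Tmsb4x at -0.27 and Actg1 at -0.13 lay below 0.

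Marker lists of cell types also differed between the libraries. The 9 enterocyte markers summed to 23057 TPM in replicate 2, against 9062 TPM in replicate 1. Relative to the median gene, 6 of these were past 2-fold higher, among them Apoa1, where 7.83% of all genes were. Past 2-fold lower was 1 (Alpi), where 5.28% of all genes were. The median ratio of the 9 markers was 1.62, which is above that of each of the 7 actin-related genes. The 7 smooth muscle markers summed to 1207 TPM in replicate 2, against 1346 TPM in replicate 1 (median ratio -0.83). The 9 leukocyte markers summed to 356 TPM in replicate 2, against 281 TPM in replicate 1. The median ratio of 7 counted leukocyte genes was -0.14, with a sign that depends on the centring, which the sum does not have. The 5 plasma cell markers, led by Igkc and Igha, summed to 63948 TPM in replicate 2, against 32054 TPM in replicate 1 (median ratio 0.13). Endothelial markers summed to 103 TPM in replicate 2, against 61.1 TPM in replicate 1 (ratio of 1 counted gene 0.03). Fibroblast markers summed to 129 TPM in replicate 2, against 119 TPM in replicate 1 (median ratio of 4 counted genes -0.58, again with a sign that depends on the centring). With TPM rescaled without the pancreas and stomach lists, the ratio of Crip1 was 1.04 and that of Actb 0.65. This rescaling multiplies each library by 1 factor, which the centring takes out again apart from the effect of the pseudocount. It therefore cannot show whether RNA of these organs affects the ratios. No marker was at 0 in both libraries, and their part in the ratios of the 7 genes was not tested. In bulk tissue, fewer cells of a type and less RNA per cell cannot be told apart.

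Ratios within a library are free of the shared total. Actb made up 90.1% of the summed Actb and Actg1 level in replicate 2, against 83.5% in replicate 1, a mean of 86.8% ± 4.61 (SD, n = 2). The level of Actb was 9.06 times that of Actg1 in replicate 2 and 5.08 times in replicate 1. Beta-actin transcript thus exceeded gamma-actin transcript in both libraries, by a margin that differed between them.

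The level of Pfn1 relative to Actb and Actg1 together was nearly the same in both libraries. It was 0.426 in replicate 2, against 0.412 in replicate 1, a mean of 0.419 ± 0.0103 (SD, n = 2). For Cfl1 it was 0.0523 in replicate 2, against 0.0556 in replicate 1. For Tmsb4x and Tmsb10 together it was 0.00665 in replicate 2, against 0.0108 in replicate 1.

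Pfn1, Cfl1 and the beta-thymosins all bind actin monomers. Their summed level was 0.485 of the cytoplasmic actin level in replicate 2, against 0.478 in replicate 1, a mean of 0.482 ± 0.00493 (SD, n = 2), and most of it was Pfn1. Among the beta-thymosins, Tmsb4x held 65.5% of the level of Tmsb4x and Tmsb10 together in replicate 2, against 72.9% in replicate 1, a mean of 69.2% ± 5.29 (SD, n = 2). These are ratios of transcript levels and not of protein.

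The 7 genes together had 32961 TPM in replicate 2, against 11634 TPM in replicate 1, a mean of 22298 ± 15081 TPM (SD, n = 2). Without Crip1 the sum was 16137 TPM in replicate 2, against 6680 TPM in replicate 1.

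Among all 7 actin genes listed, Actb and Actg1 held most of the actin level in both libraries. Actb held 85.0% of it in replicate 2, against 72.3% in replicate 1, and Actg1 9.38% in replicate 2, against 14.2% in replicate 1. Acta2, the smooth muscle alpha-actin of vessels and gut wall, had 411 TPM in replicate 2, against 454 TPM in replicate 1. Actg2, the enteric smooth muscle gamma-actin, had 219 TPM in replicate 2, against 246.7 TPM in replicate 1.

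Both smooth muscle actins together made up 5.48% of the actin level in replicate 2, against 13.4% in replicate 1. Acta1 of skeletal muscle was at 8.75 TPM in replicate 2, against 3.25 TPM in replicate 1. Actc1 of heart muscle was at 3.56 TPM in replicate 2, against 0.75 TPM in replicate 1. Actbl2 had a count of 0 in both libraries. The muscle actins differ from the cytoplasmic ones in their first residues and are made by contractile cells.

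**Figure D3:**
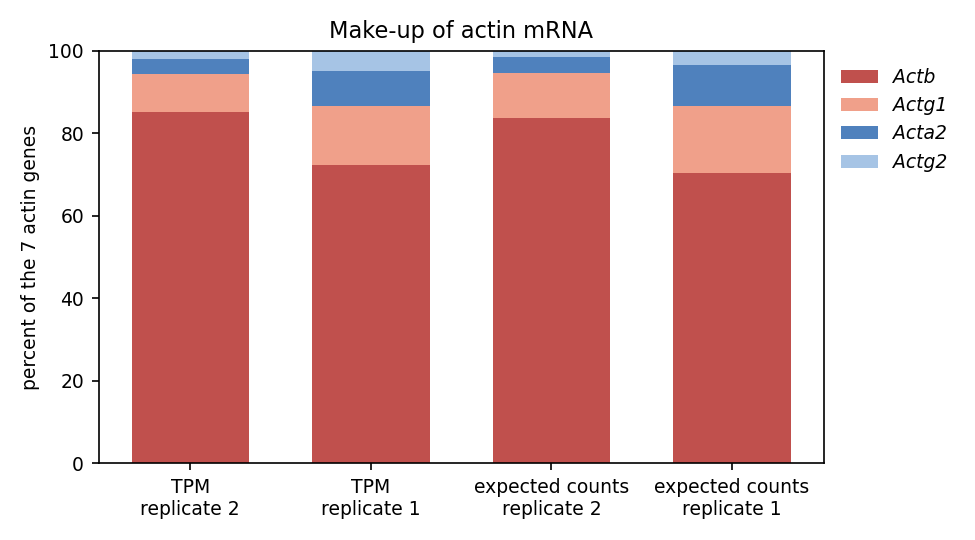
Percent of all 7 actin genes held by Actb, Actg1, Acta2 and Actg2 (the other 3 are too low to see), by TPM (left pair of bars) and by expected counts (right pair), replicate 2 left of replicate 1. By TPM, Actb held 85.0% in replicate 2, against 72.3% in replicate 1, and Acta2 with Actg2 held 5.48% in replicate 2, against 13.4% in replicate 1.

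In the profilin, cofilin and CRIP families, 1 gene held most of the level. Pfn1 held 99.99% of profilin TPM in replicate 2, against 99.98% in replicate 1. Pfn2, the profilin of neurons, had 0.69 TPM in replicate 2, against 0.31 TPM in replicate 1, and Pfn3 and Pfn4, known from testis, had no counts. Cfl1 held 90.9% of cofilin-family TPM in replicate 2, against 91.6% in replicate 1. Dstn, which encodes destrin, a relative of cofilin with strong depolymerizing activity, had 56.7 TPM in replicate 2, against 22.9 TPM in replicate 1 (ratio 0.61). Cfl2, the muscle cofilin, stayed at 0.40 TPM in replicate 2, against 0.29 TPM in replicate 1.

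The Tmsb15 genes were at the detection limit. Tmsb15l had 6 counts in replicate 2, against 0 in replicate 1, Tmsb15b1 had 1 count in replicate 2, against 0 in replicate 1, and Tmsb15a and Tmsb15b2 had 0 in both. Crip1 held 98.7% of the level of the CRIP and CSRP LIM genes in replicate 2, against 96.4% in replicate 1. Crip2 lies next to Crip1 on the same strand of chromosome 12, with 809 nt between the gene spans annotated in GENCODE M21. The Crip1 span begins at 113146316, but its RefSeq promoter window, printed below, ends at 113152011 and its coding sequence starts at 113152114. The 809 nt is therefore not the distance from Crip2 to the start of the coding transcript. Crip2 had 68.3 TPM in replicate 2, against 57.9 TPM in replicate 1 (ratio -0.43, uncentred 0.23), far below its neighbour.

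Csrp1, a LIM protein of smooth muscle and other cells that binds alpha-actinin, had 120.8 TPM in replicate 2, against 113 TPM in replicate 1 (ratio -0.56, uncentred 0.10). Csrp2 had 28.9 TPM in replicate 2, against 12.5 TPM in replicate 1 (ratio 0.48). Crip3 had 1 count in replicate 2, against 0 in replicate 1, and Csrp3, the muscle LIM protein of heart, had 0 counts in replicate 2, against 2 in replicate 1.

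The wider actin machinery was described with 8 lists of 79 genes, from filament nucleation to the transcription factor that senses actin. Of these, 64 had at least 1 TPM in both libraries and 45 had a mean of at least 10 TPM. Among the 45, 4 genes were past 2-fold higher in replicate 2 relative to the median gene, 1 was past 2-fold lower, and 40 lay within 2-fold. Among all 5926 genes these shares were 7.83% and 5.28%. The median ratio of the 45 genes was 0.42, against 0.15 for all genes. Without centring, 26 of the 45 were past 2-fold higher and 1 was past 2-fold lower, where 34.9% and 3.1% of all genes were.

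Subunits of the Arp2/3 complex, which starts branched filaments, had a median ratio of 0.37 over 8 counted genes. Arpc1b led with 832 TPM in replicate 2, against 408 TPM in replicate 1. Arpc2 had 265 TPM in replicate 2, against 88.4 TPM in replicate 1, while Arpc5 had 83.5 TPM in replicate 2, against 61.2 TPM in replicate 1, and Arpc1a had 86.2 TPM in replicate 2, against 47.9 TPM in replicate 1. Relative to the median gene no subunit passed 2-fold, where 7.83% of all genes were past it higher and 5.28% lower. Uncentred, 5 of the 8 were past 2-fold higher, where 34.9% of all genes were. Activators of the complex had a median of 0.53 over 7 counted genes. Wasl, which encodes N-WASP, had 165 TPM in replicate 2, against 60.6 TPM in replicate 1. Cttn, which encodes cortactin, a stabilizer of branches, had 104 TPM in replicate 2, against 43.6 TPM in replicate 1. Both Abi1 and Wasf2 belong to the WAVE complex. Abi1 had 96.5 TPM in replicate 2, against 45.1 TPM in replicate 1, and Wasf2 had 78.6 TPM in replicate 2, against 30.0 TPM in replicate 1.

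Formins and other linear nucleators had a median of 0.45 over 4 counted genes. Diaph1, a formin, had 43.8 TPM in replicate 2, against 24.5 TPM in replicate 1. Spire2 had 46.1 TPM in replicate 2, against 16.8 TPM in replicate 1. Cobl, which encodes the nucleator cordon-bleu, had 33.8 TPM in replicate 2, against 5.55 TPM in replicate 1, a ratio of 1.74 and past 2-fold. Fhod1 had 16.1 TPM in replicate 2, against 12.4 TPM in replicate 1.

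Capping and severing genes spread most. Their median was 0.66 over 7 counted genes. Relative to the median gene, 2 were past 2-fold higher and 1 past 2-fold lower, where 7.83% and 5.28% of all genes were. Capzb, the beta subunit of barbed-end capping protein, had 321 TPM in replicate 2, against 128 TPM in replicate 1. Gsn, which encodes the severing protein gelsolin, had 154 TPM in replicate 2, against 150.1 TPM in replicate 1. Add1, which encodes alpha-adducin, a capper of the membrane skeleton, had 129 TPM in replicate 2, against 34.0 TPM in replicate 1 (ratio 1.23).

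Scin and Capg, both of the gelsolin family, lay at opposite ends. Scin, which encodes scinderin (adseverin), had 64.9 TPM in replicate 2, against 14.3 TPM in replicate 1 (ratio 1.44). Capg, a capping protein known from macrophages, had 14.0 TPM in replicate 2, against 42.3 TPM in replicate 1 (ratio -2.19). Capg was lower in replicate 2 without centring too.

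Partners of cofilin in filament turnover had a median of 0.32 over 7 counted genes. Relative to the median gene none passed 2-fold, and uncentred 3 were past it higher. Among all genes, 7.83% were past 2-fold higher and 5.28% lower relative to the median gene, and 34.9% higher uncentred. Coro1b, a coronin, had 390.1 TPM in replicate 2, against 179 TPM in replicate 1. Wdr1, which encodes the cofilin cofactor Aip1, had 134 TPM in replicate 2, against 59.4 TPM in replicate 1. Coro1a, a coronin of blood cells, had 128 TPM in replicate 2, against 91.2 TPM in replicate 1, and Coro1c had 118 TPM in replicate 2, against 54.7 TPM in replicate 1. Kinases and phosphatases of cofilin had a median of 0.13 over 4 counted genes. Tesk1, Limk2 and Ssh3 lay between 0.06 and 0.16. Tesk2 had 21.0 TPM in replicate 2, against 4.42 TPM in replicate 1, a ratio of 1.36 and past 2-fold.

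SRF is a transcription factor whose cofactors MRTF-A and MRTF-B are held back by actin monomers and which drives actin genes. Srf had 64.6 TPM in replicate 2, against 41.7 TPM in replicate 1. Mrtfa had 28.3 TPM in replicate 2, against 13.5 TPM in replicate 1, and Mrtfb had 6.99 TPM in replicate 2, against 3.22 TPM in replicate 1.

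**Figure D4:**
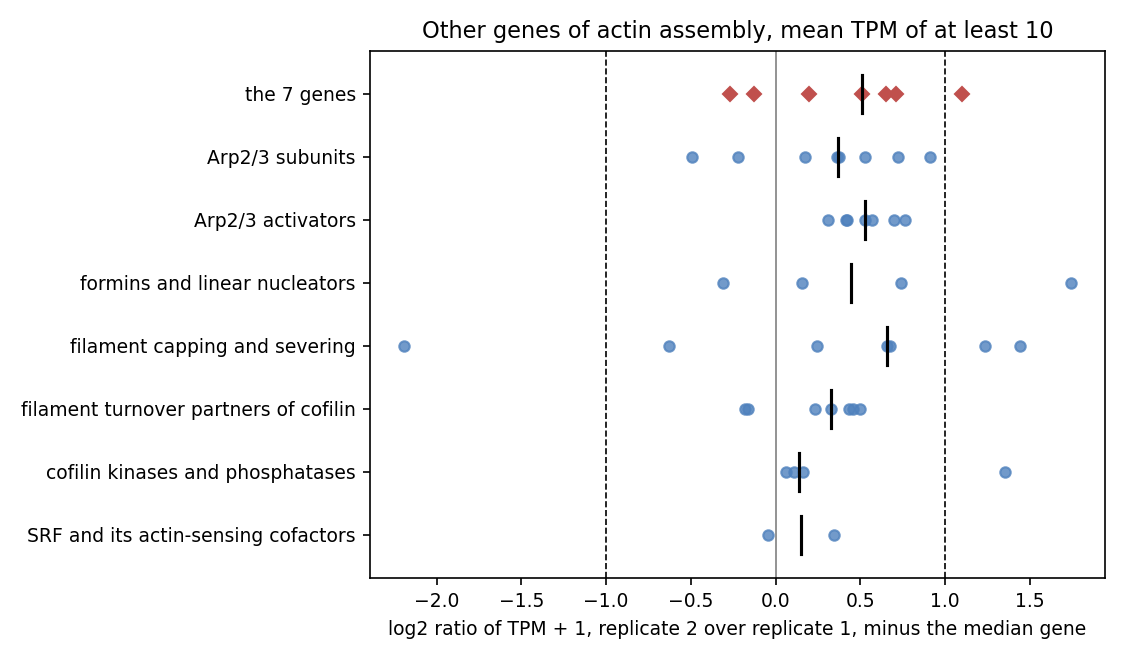
Log2 ratio of TPM + 1, replicate 2 over replicate 1, minus the median gene, for the 7 genes and for the genes of the actin lists described above with a mean TPM of at least 10, with a black bar for each median and dashed lines at 2-fold. Most points lay between 0 and 1, with Cobl at 1.74 as the highest and Capg at -2.19 as the lowest of the lists.

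The promoters of 6 members were found in the RefSeq table for GRCm38.p6, in 8 windows. Actb was not matched. The 250 bases before each start were searched on both strands for the CArG box, to which SRF binds. They were also searched for the TATA box TATAAA, for the Sp1 motif GGGCGG and for the CCAAT box. The Actg1 window held a CArG box at position -90 relative to the start. Of 32851 promoter windows of that length 1.47% held a CArG box, and those of Pfn1, Cfl1, Tmsb4x, Tmsb10 and Crip1 held none. The Actg1 window spans chr11:120348496-120348745 (minus strand, GRCm38) and is shown with the CArG box in capitals.
Actg1 promoter: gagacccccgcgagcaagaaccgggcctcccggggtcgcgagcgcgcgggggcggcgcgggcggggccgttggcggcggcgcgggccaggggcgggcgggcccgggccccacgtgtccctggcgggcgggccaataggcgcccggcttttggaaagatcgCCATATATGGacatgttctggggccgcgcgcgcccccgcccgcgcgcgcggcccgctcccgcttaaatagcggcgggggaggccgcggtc
It also held GGGCGG 6 times, present in 32.7% of all windows, and CCAAT at position -120, present in 33.8%.

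The Crip1 promoter is shown because Crip1 was the highest member by TPM, though not by expected counts or, in replicate 1, by counts per full length. Its window spans chr12:113151762-113152011 (plus strand, GRCm38), with GGGCGG in capitals.
Crip1 promoter: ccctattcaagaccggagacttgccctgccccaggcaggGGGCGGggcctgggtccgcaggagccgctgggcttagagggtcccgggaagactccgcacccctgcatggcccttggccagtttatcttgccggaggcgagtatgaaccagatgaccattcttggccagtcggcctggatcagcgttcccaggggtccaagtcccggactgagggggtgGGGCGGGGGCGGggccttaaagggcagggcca
GGGCGG occurred 3 times in the Crip1 window, 2 times in that of Pfn1, once in that of Tmsb4x and in every one of the 3 windows of Tmsb10. The Cfl1 window held CCAAT at position -146. TATAAA, found in 12.4% of all windows, was in none of the members' windows. A match is a description of the letters only.

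The transcript tables split each gene into annotated isoforms. Cfl1 and Crip1 had 1 transcript each. Of the 8 transcripts of Actb, Actb-201 of 1920 nt held 65.9% of the gene's TPM in replicate 2, against 63.1% in replicate 1. The shorter Actb-208 of 930 nt held 28.4% in replicate 2, against 33.0% in replicate 1. Actb-207 differed between libraries, with 311 TPM (3.18%) in replicate 2, against 0.85 TPM (0.02%) in replicate 1.

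Actg1 was split mainly between Actg1-202, with 51.6% in replicate 2, against 52.6% in replicate 1, and Actg1-204, with 40.7% in replicate 2, against 35.0% in replicate 1. Its 4 transcripts of noncoding classes, 3 with a retained intron and 1 marked for nonsense-mediated decay, held 6.40% in replicate 2, against 10.4% in replicate 1. Pfn1-201 held 93.0% of Pfn1 in replicate 2, against 98.7% in replicate 1. Pfn1-204, classed as a target of nonsense-mediated decay, was estimated at 259.9 TPM (5184 counts, 5.61%) in replicate 2, against 2.12 TPM (52.7 counts, 0.11%) in replicate 1. This was the widest gap between libraries for any noncoding-class transcript of the 7 genes.

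Tmsb4x-201 held 91.3% of Tmsb4x in replicate 2, against 98.7% in replicate 1, and Tmsb4x-203 held 7.86% (70.3 counts) in replicate 2, against 0.79% (6.68 counts) in replicate 1. Tmsb10-203 held 82.1% of Tmsb10 in replicate 2, against 75.3% in replicate 1, and Tmsb10-204 held 8.60% in replicate 2, against 19.0% in replicate 1. The counts behind the minor beta-thymosin transcripts were few, at most 70.3 in a library. Isoform shares are estimates from short reads, and their own error was not available here as a spread beyond the 2 libraries.

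**Figure D5:**
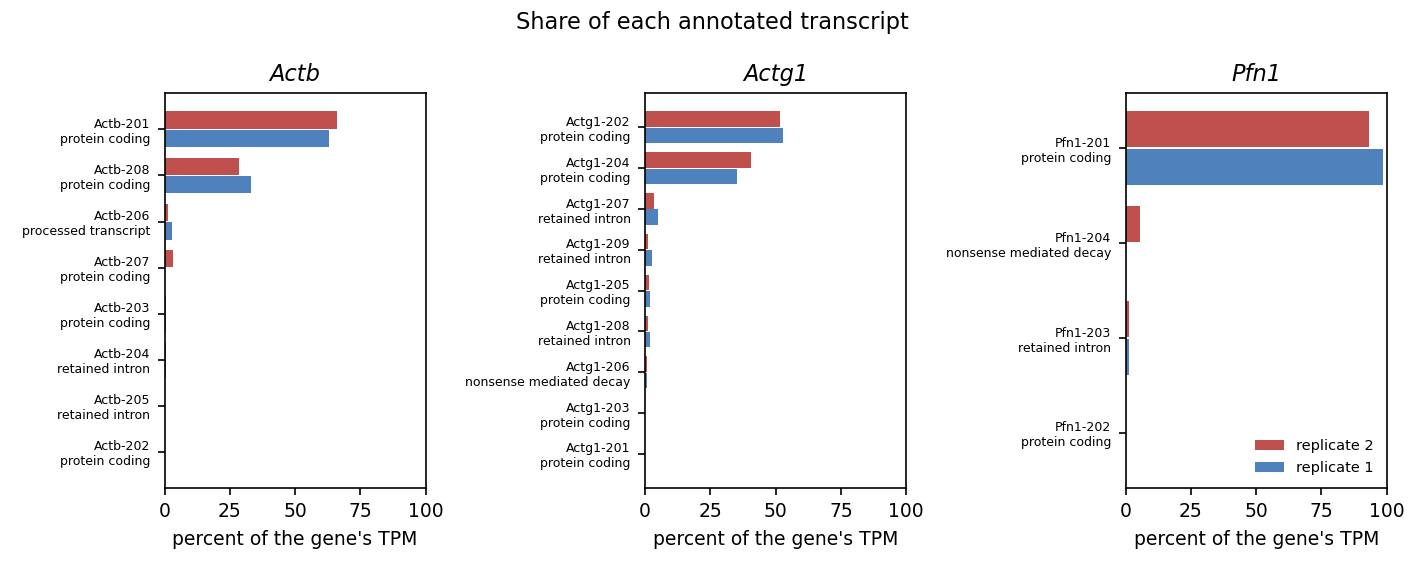
Percent of each gene's TPM by annotated transcript for Actb, Actg1 and Pfn1, with the class of each transcript, replicate 2 (red) above replicate 1 (blue). Pfn1-204 held 5.61% in replicate 2, against 0.11% in replicate 1, and Actb-208 held 28.4% in replicate 2, against 33.0% in replicate 1.

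Copies of the members elsewhere in the genome can take or give reads. The main transcripts were searched for exact stretches of 76 nt shared with GENCODE M21 transcripts of other genes. Only genes among the 43346 Ensembl genes of the deposited data were counted, so sharing with copies outside them is not covered. Pfn1, Tmsb4x and Crip1 shared none. Actb shared 2.49% of its stretches and Cfl1 7.27%. Tmsb10 shared 45.9%, mainly with Gm9844, which held 2.59 counts in replicate 2, against 1.46 in replicate 1.

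Actg1 shared 54.3% of its stretches with 6 genes, the largest share of the 7. These include a miRNA gene that overlaps Actg1 itself and is not a copy elsewhere. A single read from such a stretch cannot tell the genes apart, and how well read pairs split them was not tested. The processed pseudogene Gm12715 (chr4:103563402-103564529, GRCm38) shared 47.7% and was listed at 158 TPM (5666 counts) in replicate 2, against 44.3 TPM (2012 counts) in replicate 1. Its ratio was 1.15 where that of Actg1 was -0.13. Summed with this copy, Actg1 came to 1238 TPM in replicate 2, against 788 TPM in replicate 1, and the Actb share of cytoplasmic actin to 88.8% in replicate 2, against 82.7% in replicate 1. Cfl1 overlaps Snx32 on the opposite strand, at 1.63 TPM in replicate 2, against 0.89 TPM in replicate 1.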

How the data were processed

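The 7 genes and all lists were chosen with earlier results of these data known. The authors deposited a gene table and a transcript table per library, made on mm10 with annotation release M4, per the text deposited beside the tables; the aligner and quantifier were not given in the sources used here. Each deposited table gives expected counts (estimated fragments, not whole), and TPM and FPKM made by the authors, all features and spike-ins included. Each deposited transcript table holds, as a percent, the part of a gene's TPM in each transcript. Deposited credibility intervals, of unstated level, belong to the posterior mean TPM and can miss the TPM itself, as for Crip1 in replicate 2. Totals were 45822403 and 45472946 expected counts in replicates 2 and 1.

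Gene names, coordinates and transcripts came from GENCODE M21 on GRCm38 by stable identifier (98.0% matched), and promoters from the RefSeq table for GRCm38.p6. Sequence stretches of 76 nt were compared as exact matches on the same strand. Ratios set replicate 2 over replicate 1 as the difference of log2(TPM + 1), minus the median of genes with mean TPM of at least 1; counts past 2-fold use genes with mean TPM of at least 10. The pseudocount of 1 understates ratios of low genes. The counting error of a ratio comes from the expected counts alone. With 1 group of n = 2 no test was made. The naming rule covers the 7 genes, their families, pseudogenes named for them, the 4 highest of each actin list with any past 2-fold and the 2 nearest genes of each member. It also allows the 2 highest of each marker list, of which only some are named. Outside it, Vil1, Alpi, Snx32, Gm12715 and Gm9844 were named after their values were seen. The ratio of Crip1 over Actb with its alternatives, the sum without Crip1 and the Actb share with Gm12715 were also chosen after seeing the data. One listed cofilin phosphatase was not analysed here. The genes of 1 of the 8 actin lists count in the totals but are not reported here. The centred ratio and the 2-fold call were tested on simulated libraries in which known genes were raised. The other steps were not simulated, and neither was a difference in RNA of other organs. Alternatives were other pseudocounts, FPKM, posterior mean TPM, other centring, rescaling and spike-in totals, and, on expected counts rounded to whole numbers, TMM factors (edgeR 4.0.16) and size factors (DESeq2 1.42.0, R 4.3.3). Python 3.11.15, numpy 2.4.6, pandas 2.3.3 and matplotlib 3.10.9 were used.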

Additional observations from a re-analysis of the deposited data

How the results depend on the processing

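The median ratio of the 7 genes stayed above 0 in all 10 alternatives, between 0.36 and 1.17, and that of Crip1 lay between 0.95 and 1.76. These alternatives are not independent checks. FPKM, rescaling and spike-in totals multiply the TPM of each library by 1 factor, which the centring removes apart from the pseudocount. In the same way, TMM factors and size factors scale the same counts, so their results had to be close to each other. The number past 2-fold was 1, but 0 with a pseudocount of 0.1, 0 when centred on genes of at least 10 TPM and 4 without centring. The actin lists had 5 of 45 genes past 2-fold (7.83% of all genes higher, 5.28% lower), and 27 without centring (34.9% higher, 3.1% lower). By expected counts not divided by length, the summed level was 662356 counts, the Tmsb4x share 78.3% and the monomer binders per cytoplasmic actin 0.236. Crip1 over Actb was 0.873 by counts per full transcript length, an alternative added after seeing the data; the effective length of Crip1 is less than its full length by construction. Leaving out each replicate in turn only returns the value of the other library, so it cannot test these results. The values were sums of 11634 to 32961 TPM, Actb shares of 83.5% to 90.1% and Tmsb4x shares of 65.5% to 72.9%. Monomer binders per cytoplasmic actin were 0.478 to 0.485 and Crip1 over Actb was 1.31 to 1.72. The median gene itself lay 0.66 higher in replicate 2, 0.43 after rescaling without the pancreas and stomach lists and 0.03 with TMM factors. Rescaled, the median member ratio was 0.46. No paired analysis was possible because the labels give 1 group. With n = 2, each spread rests on 1 difference. Depth limits the Tmsb15 genes, Crip3 and Csrp3, which had 6 counts or fewer.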

Other observations

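For each of the 7 genes the protein-coding genes with the most similar pair of levels were found, as the distance in log2(TPM + 1) over the 2 libraries. With 2 points per gene this describes level and ratio only. Actb was nearest to Tff3, a goblet cell trefoil peptide at 8642 TPM in replicate 2, against 4211 TPM in replicate 1, and to mt-Co1 of the mitochondrial genome. Pfn1 was nearest to Apoa4, an apolipoprotein of enterocytes at 4255 TPM in replicate 2, against 1916 TPM in replicate 1, and to Phgr1. Actg1 was nearest to Rps10, a ribosomal protein gene at 1064 TPM in replicate 2, against 802 TPM in replicate 1, and to Oaz1.

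Cfl1 was nearest to Ehd1 and Tfg, which act in membrane traffic, at distances of 0.032 and 0.044. Tmsb4x was nearest to Hist1h3g and Atf5, and Tmsb10 to Bap1 and Ppp1r11. Crip1 had no protein-coding gene as close. Its nearest protein-coding genes were Actb at a distance of 0.87 and Tff3 at 0.99, whereas that of each of the other 6 lay within 0.24. Antibody genes were outside this search, among them Igha at 20453 TPM in replicate 2, against 8008.5 TPM in replicate 1, which lay closer to Crip1 than Actb did. Crip1 was also chosen partly for its high level, and few genes lie so high.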
